A study of Mus musculus with 6 samples.

Results

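The proteasome genes of cultured mouse granulocytes were compared between 3 caffeine+ and 3 caffeine- arrays of the Affymetrix Mouse Gene 1.0 ST design. Members were the genes whose probe set is annotated to exactly 1 symbol beginning with Psma, Psmb, Psmc, Psmd, Psme, Psmf or Psmg and a digit, and each gene was represented by its brightest probe set. This gave 50 of the 19937 genes measured. Of these, 48 encode parts or helpers of the proteasome, and 2, Psmc3ip and Psme3ip1, carry the name only because their proteins bind a proteasome protein or were named after one. The 48 comprise 19 core genes (Psma and Psmb), 20 cap genes (Psmc and Psmd), 5 activator and inhibitor genes (Psme and Psmf1) and 4 genes of core assembly (Psmg). All cells were primary granulocytes of C57BL/6J mice. According to the protocol in the labels, every culture was first kept in 15 mM caffeine for 4 hours and then washed. The caffeine+ cells were then held for 4 hours in 2 µg/ml actinomycin D, which blocks transcription, together with caffeine, and the caffeine- cells in actinomycin D alone. Read in this way both groups had met caffeine and both were under the transcription block, although the source label of the caffeine- cells says that they were not treated with caffeine. The series set out to find transcripts that build up when nonsense-mediated decay (NMD) is inhibited, caffeine serving as the inhibitor. The labels do not say whether the replicates were separate animals or cultures, so p-values cover only array-to-array spread, part of which may be technical.

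The proteasome is the protease that destroys proteins tagged with ubiquitin. Its barrel-shaped core is built of stacked rings, with the alpha subunits (Psma) at the ends forming the gate and the beta subunits (Psmb) inside carrying the cutting sites. A regulatory cap binds the ends of the core: its base holds the ATPases (Psmc) that unfold substrates, and its lid (most of the Psmd proteins) removes the ubiquitin chain. Cells of the immune system can replace the catalytic beta subunits by inducible ones, which makes the immunoproteasome, and can put the activator PA28 in place of the cap, and both are known for making peptides for MHC class I molecules.

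Values are log2 levels, differences are caffeine+ minus caffeine- log2 levels, given ± SE, and a gene passed when limma's Benjamini-Hochberg adjusted p over all 19937 genes was under 0.05. Array medians were between 6.49 and 6.60, and arrays correlated at r = 0.986 to 0.992 within groups and 0.959 to 0.965 between groups (Pearson, across probe sets). The median of 15 neutrophil markers stood at the 96.0th percentile of gene levels, and single markers lay between the 44.2nd (Mmp9) and the 99.8th (Mpo). The median of 6 eosinophil, basophil and mast cell markers stood at the 92.8th. All 15 were lower in caffeine+ cells, with a mean list level of 9.50 to 9.55 in the caffeine+ arrays and 10.07 to 10.23 in the caffeine- arrays. Of 7 monocyte and macrophage markers 6 were lower and 1 higher (mean level 8.37 in each caffeine+ array, 9.02 to 9.19 in the caffeine- arrays). All 6 dendritic cell markers were lower (7.41 to 7.47 and 7.84 to 7.92 in the same order), as were 2 of 5 B cell markers, 3 of 6 eosinophil, basophil and mast cell markers (1 was higher), 1 of 3 erythroid markers and 1 of 4 megakaryocyte markers. None of 7 T and NK cell markers passed in limma, although 2 (Gzma and Cd3d) had an unadjusted p under 0.05, both higher. Fewer cells of a type and less RNA per cell cannot be told apart in such bulk samples, and the part these shifts have in the results below was not tested.

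Proteasome genes differed in both directions, and most parts of the machine held rises and falls side by side. Here and below, a gene that rose or fell is one that passed with a higher or lower level in caffeine+ than in caffeine- cells. Both groups were under the transcription block and no earlier time was measured, so these words do not stand for a change over time or in transcription. Of the 48 genes, 14 rose, 18 fell and 16 did not pass, where 37.9% of all 19937 genes passed (16.2% higher and 21.7% lower). The shares among the 48 were 29.2% higher and 37.5% lower, and their median difference was -0.06, beside -0.04 over all genes. Members were brighter than most genes, with a median level of 9.90 beside 6.68, and genes that did not pass were dimmer (6.06). In the fit of the 9968 genes above the median level, 3070 genes were higher and 3496 lower. Among the members kept, all but Psma8 and Psmb11, 14 were higher and 18 lower. The shares among the 48 lie near those of genes above the median level. Shares over all genes, here and beside the lists below, are thus not matched for level. With arrays centred on their medians the median of the 48 was 0.00, beside 0.02 over all genes, and without caffeine- array 3 it was -0.09. The groups did not overlap in 39 of the 48 genes, beside 45.9% of all genes. The core had 2 rises and 8 falls among 19 genes (median -0.12), and the cap 9 rises and 6 falls among 20 (median 0.08, between 0.05 and 0.14 over the alternatives). Among the activators and the inhibitor 1 of 5 rose and 3 fell, and among the core assembly factors 2 of 4 rose and 1 fell. Differences ran from -0.94 for Psmb9 to 0.90 for Psmd5, so that no member reached 2-fold on the deposited values, although Psmb9 did after quantile normalization (-1.005). The difference between core and cap was not tested.

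**Figure D1:**
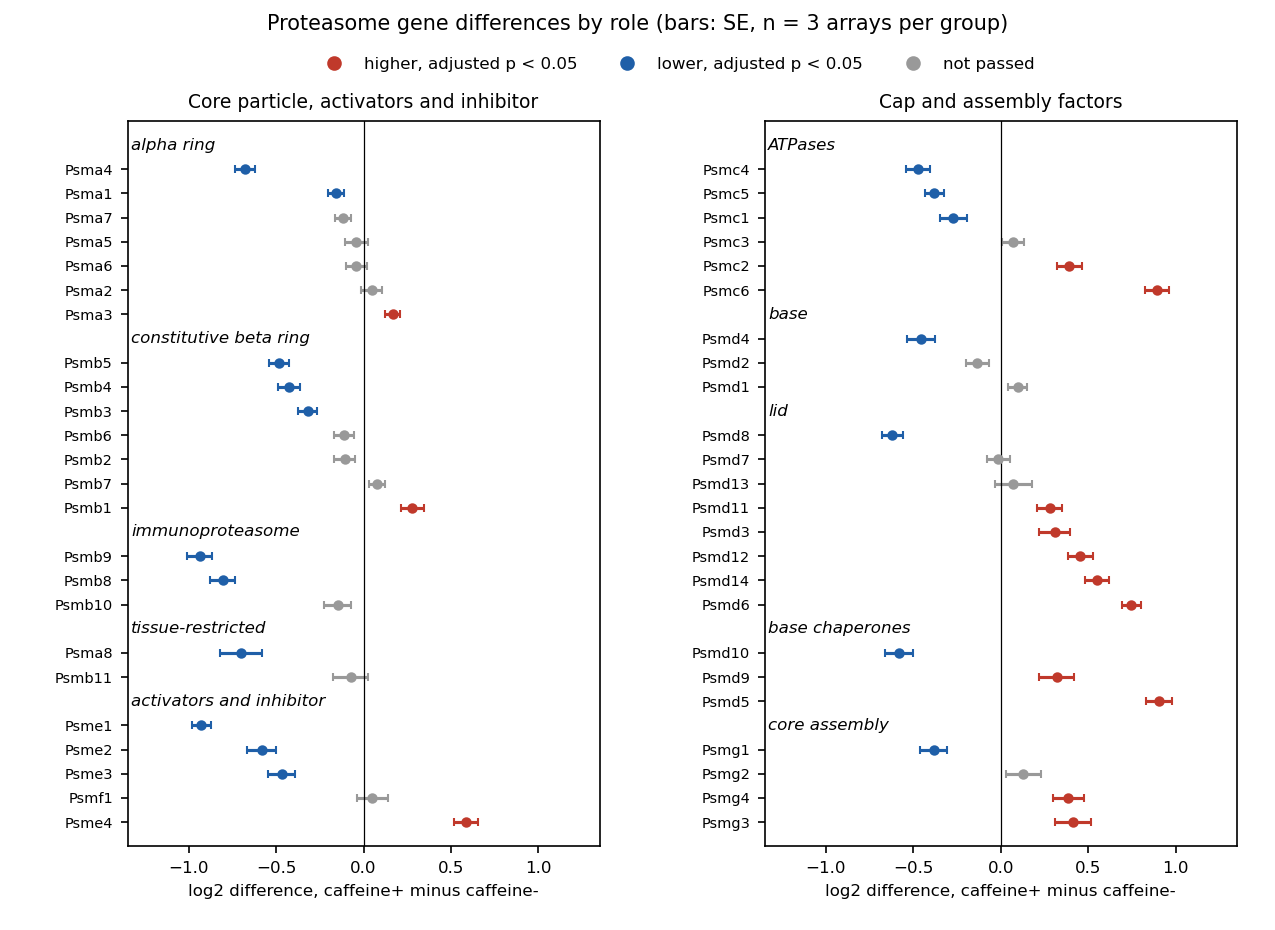
Log2 difference, caffeine+ minus caffeine-, of the 48 proteasome genes, grouped by role. Points are differences, bars are standard errors (n = 3 arrays per group), and colour gives the limma call. Inducible core genes and the PA28 genes lie at the left, between -0.94 and -0.15 for the 3 immunoproteasome genes, while 5 of 8 lid genes lie to the right of 0 and passed.

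Promoters of the members were read from RefSeq (GRCm38.p6), where 40 of the 48 genes had at least 1 window of 300 bases, 250 before the start and 50 after it. The window was searched on both strands for TGACNNNGC, TTCNNNGAA and GAAANNGAA. TGACNNNGC is the core of the antioxidant response element bound by NRF2 and by NRF1, the factor that drives proteasome genes when the proteasome fails. TTCNNNGAA is the gamma-activated site of STAT factors, and GAAANNGAA is part of the element bound by interferon regulatory factors. The first was found in 6 of 40 members, 4 of 12 that rose, 1 of 17 that fell and 1 of 11 that did not pass, and in 12.4% of all 32851 promoter windows. TTCNNNGAA was found in 3 members (0 of 12 that rose, 2 of 17 that fell and 1 of 11 that did not pass). It was in 6.98% of the members' windows and in 8.30% of all windows. GAAANNGAA was found in 7 (3 of 12, 4 of 17 and 0 of 11 in that order), in 16.3% of the members' windows and in 8.56% of all windows. The windows of 2 members that fell and 2 that rose, chosen because each is among the largest changes of its role and holds a match, read 5′ to 3′ as follows, with the match in capitals. Psmb8 (chr17:34197945-34198244, plus strand) holds TTCNNNGAA, a pattern that is its own reverse complement, from position -97 and Psme1 (chr14:55578244-55578543, plus strand) holds GAAANNGAA on the reverse strand from position 11, counted from the gene's start. Psmc6 (chr14:45329574-45329873, plus strand) and Psme4 (chr11:30771525-30771824, plus strand) hold TGACNNNGC on the reverse strand from positions -227 and -7. Each of these 4 windows held 1 match, so none overlapped another motif. A match is a run of letters and says nothing of binding in these cells.
Psmb8: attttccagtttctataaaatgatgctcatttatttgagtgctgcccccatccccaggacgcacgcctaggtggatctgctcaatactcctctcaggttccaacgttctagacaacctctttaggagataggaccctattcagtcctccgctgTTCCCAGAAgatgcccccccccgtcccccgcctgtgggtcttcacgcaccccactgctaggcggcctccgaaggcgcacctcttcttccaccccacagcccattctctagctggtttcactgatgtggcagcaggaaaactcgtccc
Psme1: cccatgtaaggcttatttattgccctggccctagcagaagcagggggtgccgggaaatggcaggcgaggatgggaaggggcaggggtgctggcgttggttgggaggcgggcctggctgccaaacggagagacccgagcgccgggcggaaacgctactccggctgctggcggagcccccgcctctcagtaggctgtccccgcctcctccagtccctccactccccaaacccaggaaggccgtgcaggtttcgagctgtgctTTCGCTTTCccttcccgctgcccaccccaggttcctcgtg
Psmc6: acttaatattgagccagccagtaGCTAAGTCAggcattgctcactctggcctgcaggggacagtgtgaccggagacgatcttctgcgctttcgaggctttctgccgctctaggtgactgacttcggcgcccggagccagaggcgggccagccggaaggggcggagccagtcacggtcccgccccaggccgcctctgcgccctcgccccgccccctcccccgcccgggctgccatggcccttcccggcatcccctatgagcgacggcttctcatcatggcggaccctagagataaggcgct
Psme4: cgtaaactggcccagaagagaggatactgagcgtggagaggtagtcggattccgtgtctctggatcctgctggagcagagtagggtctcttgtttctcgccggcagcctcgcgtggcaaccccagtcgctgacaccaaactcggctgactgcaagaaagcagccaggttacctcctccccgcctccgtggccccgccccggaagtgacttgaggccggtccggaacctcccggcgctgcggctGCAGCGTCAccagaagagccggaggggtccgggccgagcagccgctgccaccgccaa

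In the alpha ring 1 of 7 genes rose, 2 fell and 4 did not pass. Psma4, a subunit of the gate, was 10.48, 10.61 and 10.65 in the caffeine+ arrays, against 11.28, 11.22 and 11.28 in the caffeine- arrays. The groups did not overlap, and Psma4 was 1.6-fold lower (log2 difference -0.68 ± 0.06, limma adjusted p = 8.8e-08). The other 6 differences in this ring lay between -0.16 and 0.17. Psma1 differed by -0.16 ± 0.05 (limma adjusted p = 0.015), a call that was lost without caffeine+ array 1 (0.094), with arrays centred on their medians (0.21) and without the intensity trend (0.15). Psma3 was 12.06, 12.11 and 12.08 in the caffeine+ arrays, against 11.93, 11.94 and 11.87 in the caffeine- arrays. It differed by 0.17 ± 0.04 (adjusted p = 0.0054 by limma) at its brightest probe set. Its 2 dimmer probe sets gave 0.00 ± 0.07 and 0.07 ± 0.08 in a limma fit of every probe set and did not pass, and the mean of the 3 did not either (0.08, adjusted p = 0.35). Without the intensity trend the Psma3 call was lost too (0.12). Psma2 (0.05 ± 0.06), Psma5 (-0.04 ± 0.07) and Psma6 (-0.04 ± 0.06) had overlapping groups. Psma7 (-0.12 ± 0.05, limma adjusted p = 0.053) had groups that did not overlap and passed without caffeine- array 3 (0.023), with array weights (0.026) and when dim genes were left out (0.029 above the median level, 0.039 above the lower quartile).

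Of the 7 constitutive beta genes 1 rose and 3 fell. Psmb5 encodes the chymotrypsin-like site, the target of proteasome inhibitor drugs. Its levels were 10.23, 10.32 and 10.32 in the caffeine+ arrays, against 10.78, 10.70 and 10.84 in the caffeine- arrays. No array of one group reached the other, and Psmb5 was 1.4-fold lower (-0.48 ± 0.06, limma adjusted p = 5.1e-06). Psmb4, the gene of a structural subunit, was 9.75, 9.78 and 9.78 in the caffeine+ arrays, against 10.15, 10.14 and 10.29 in the caffeine- arrays. It was 1.34-fold lower (-0.42 ± 0.06), and another structural subunit gene, Psmb3, was 1.25-fold lower (-0.32 ± 0.05), both without overlap. The second probe set of Psmb3 pointed the same way and did not pass (-0.22 ± 0.08, limma adjusted p = 0.057). The genes of the other catalytic sites, Psmb6 (caspase-like, -0.11 ± 0.06, 95% interval -0.23 to 0.01) and Psmb7 (trypsin-like, 0.08 ± 0.05, -0.02 to 0.18), did not pass, although Psmb7 did after quantile normalization (adjusted p = 0.011). Psmb2 (-0.11 ± 0.06) also passed only there (0.0057). Psmb1, a structural subunit gene, was the rise of this ring, at 10.36, 10.38 and 10.37 in the caffeine+ arrays, against 10.23, 10.07 and 9.97 in the caffeine- arrays (0.28 ± 0.07, limma adjusted p = 0.0032). Its caffeine+ arrays lay close together and all above the caffeine- arrays, which were spread more widely.

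Of the 3 immunoproteasome genes 2 fell and 1 did not pass. Psmb9, whose product takes the place of the Psmb6 subunit, was 8.45, 8.40 and 8.31 in the caffeine+ arrays, against 9.32, 9.31 and 9.34 in the caffeine- arrays. Psmb8, which replaces Psmb5, was 8.230, 8.284 and 8.255 in the caffeine+ arrays, against 9.138, 9.049 and 9.001 in the caffeine- arrays. In both genes every caffeine+ array was well below every caffeine- array. Psmb9 was 1.91-fold lower (-0.94 ± 0.07, limma adjusted p = 3.7e-08) and Psmb8 1.75-fold lower (-0.81 ± 0.07, limma adjusted p = 2.4e-07). These 2 genes lie side by side on chromosome 17 with Tap1 between them and Tap2 next to Psmb8. Psmb10, the inducible counterpart of Psmb7, lies on chromosome 8 and was 8.02, 8.08 and 8.07 in the caffeine+ arrays, against 8.23, 8.15 and 8.23 in the caffeine- arrays. Its arrays did not overlap between groups, but the difference of -0.15 ± 0.08 did not pass (limma adjusted p = 0.17, 95% interval -0.31 to 0.02), and it passed under none of 16 alternative settings. The interval of Psmb10 does not reach the differences of Psmb8 and Psmb9, while the differences between these genes were not tested. Monocyte, macrophage and dendritic cell markers, from cells known to be rich in immunoproteasome, were lower too (6 of 7 and 6 of 6). Their mean levels were 8.37 and 7.41 to 7.47 in the caffeine+ arrays, against 9.02 to 9.19 and 7.84 to 7.92 in the caffeine- arrays. Lower markers were not limited to those cells, as all 15 neutrophil markers were lower. Median differences were -0.61 for neutrophil, -0.98 for monocyte and macrophage and -0.45 for dendritic cell markers. The part of these shifts in the falls was not tested.

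**Figure D2:**
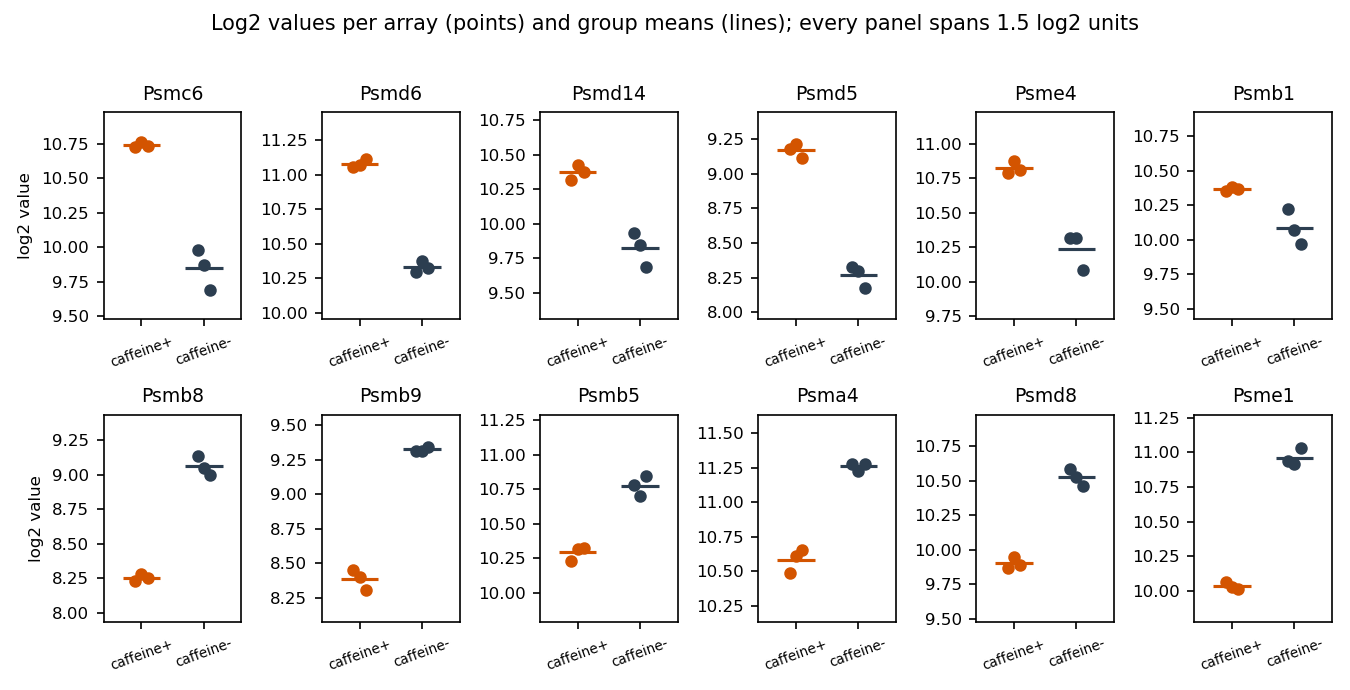
Log2 values of 12 proteasome genes in each array, with caffeine+ left and caffeine- right in every panel. Points are arrays, lines are group means (n = 3), and every vertical axis spans 1.5 log2 units. The upper row shows genes that rose and the lower row genes that fell, and in none of these 12, picked from the 39 of 48 without overlap, do the groups overlap (45.9% of all genes).

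The tissue-restricted core genes were dim. Psma8, a testis subunit gene, was 5.15, 5.20 and 5.32 in the caffeine+ arrays, against 5.69, 5.95 and 6.14 in the caffeine- arrays, below the array medians in every array (-0.70 ± 0.12, limma adjusted p = 0.00021). The thymus subunit gene Psmb11 was 6.29, 6.16 and 6.36 in the caffeine+ arrays, against 6.33, 6.37 and 6.33 in the caffeine- arrays, with overlapping groups (-0.07 ± 0.10). Without detection calls a dim value cannot be told from background, and the differences of such genes may be too small.

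In the cap, 2 of the 6 ATPase genes rose and 3 fell. Psmc6 was 10.73, 10.76 and 10.74 in the caffeine+ arrays, against 9.98, 9.87 and 9.69 in the caffeine- arrays, which made it 1.86-fold higher (0.89 ± 0.07, limma adjusted p = 4.7e-08). The lowest caffeine+ array lay above the highest caffeine- array, and the caffeine- arrays varied more. Psmc2 was 1.31-fold higher (0.39 ± 0.07). Psmc5 was 10.85, 10.90 and 10.88 in the caffeine+ arrays, against 11.34, 11.19 and 11.25 in the caffeine- arrays, again without overlap, and 1.3-fold lower (-0.38 ± 0.05). Psmc4 was 1.39-fold lower (-0.47 ± 0.07) and Psmc1 1.21-fold lower (-0.27 ± 0.08), while Psmc3 differed by 0.07 ± 0.06. These 6 proteins form 1 ring in the cap in equal numbers, and their transcripts ran from -0.47 to 0.89. The Psmc1 call (limma adjusted p = 0.009) was lost without caffeine+ array 1 (0.066), without caffeine- array 2 (0.057) and with arrays centred on their medians (0.075). Its dimmer probe set fell by 0.49 on the log2 scale, but may measure a copy elsewhere, as described with the uncertain values below.

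Of the other base genes, Psmd4, which encodes a receptor for ubiquitin chains, was 8.42, 8.45 and 8.26 in the caffeine+ arrays, against 8.93, 8.77 and 8.79 in the caffeine- arrays (-0.46 ± 0.08, limma adjusted p = 0.00026). Its groups were well separated. The scaffold genes Psmd1 (0.10 ± 0.06, 95% interval -0.02 to 0.22) and Psmd2 (-0.13 ± 0.07, -0.28 to 0.01) did not pass. Psmd2 was 9.81, 9.92 and 9.90 in the caffeine+ arrays, against 10.12, 9.98 and 9.94 in the caffeine- arrays. Its groups did not overlap, and its dimmer probe set passed (-0.19 ± 0.06, adjusted p = 0.028 in a limma fit of every probe set). Psmd2 itself passed after quantile normalization (0.0034) and without caffeine- array 3 (0.036).

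In the lid 5 of 8 genes rose, 1 fell and 2 did not pass, the largest share of rises in any role with more than 4 genes. Psmd6 was 11.05, 11.07 and 11.11 in the caffeine+ arrays, against 10.29, 10.38 and 10.33 in the caffeine- arrays. Its 2 groups kept far apart, at 1.68-fold higher (0.75 ± 0.05, limma adjusted p = 1.7e-08). Psmd14, the enzyme that cuts the ubiquitin chain from the substrate, was 10.32, 10.43 and 10.37 in the caffeine+ arrays, against 9.93, 9.85 and 9.69 in the caffeine- arrays. It was 1.46-fold higher (0.55 ± 0.07), without overlap. Psmd12 (1.37-fold higher, 0.46 ± 0.07), Psmd3 (1.24-fold higher, 0.31 ± 0.09) and Psmd11 (1.21-fold higher, 0.28 ± 0.07), scaffold subunit genes of the lid, rose less. Psmd7, whose protein pairs with that of Psmd14, differed by -0.01 ± 0.07 (95% interval -0.16 to 0.13), and Psmd13 by 0.07 ± 0.10. The fall was Psmd8, at 9.87, 9.95 and 9.89 in the caffeine+ arrays, against 10.58, 10.53 and 10.46 in the caffeine- arrays. Psmd8 was 1.54-fold lower (-0.62 ± 0.06, limma adjusted p = 4e-07), with groups that did not overlap.

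Helpers of assembly moved in both directions. Psmd5, Psmd9 and Psmd10 carry cap names but encode chaperones that help the base to form and leave it afterwards. Psmd5 was 9.18, 9.22 and 9.12 in the caffeine+ arrays, against 8.33, 8.30 and 8.18 in the caffeine- arrays. It rose about as much as Psmc6, 1.87-fold higher (0.90 ± 0.08, limma adjusted p = 9e-08). Psmd10, the gankyrin gene, was 9.34, 9.58 and 9.55 in the caffeine+ arrays, against 10.20, 10.03 and 9.99 in the caffeine- arrays, and so 1.5-fold lower (-0.58 ± 0.08, limma adjusted p = 1.7e-05). These 2 chaperone genes moved in opposite directions with no overlap of groups in either. Psmd9 differed by 0.32 ± 0.10 (limma adjusted p = 0.016), a call lost without caffeine+ array 2 (0.077) or caffeine- array 2 (0.085). Of the chaperones of core assembly, Psmg3 and Psmg4, partners in 1 complex, were both higher, at 0.41 ± 0.10 (limma adjusted p = 0.0041) and 0.39 ± 0.09 (limma adjusted p = 0.0019). Psmg4 was 7.87, 7.82 and 7.79 in the caffeine+ arrays, against 7.56, 7.40 and 7.36 in the caffeine- arrays. Psmg1 was 8.50, 8.57 and 8.60 in the caffeine+ arrays, against 9.04, 8.94 and 8.85 in the caffeine- arrays, lower without overlap (-0.38 ± 0.08, limma adjusted p = 0.00068). Its partner gene Psmg2 did not pass, at 0.13 ± 0.10 with overlapping groups.

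Among the activators the PA28 genes fell and the PA200 gene rose. Psme1, which encodes the alpha subunit of PA28, was 10.06, 10.03 and 10.01 in the caffeine+ arrays, against 10.94, 10.92 and 11.03 in the caffeine- arrays. The groups were clearly apart, and Psme1 was 1.9-fold lower (-0.93 ± 0.06, limma adjusted p = 3.1e-09). Its partner gene Psme2, for PA28 beta, lies next to it on chromosome 14 and was 1.5-fold lower (-0.58 ± 0.08, limma adjusted p = 2.7e-05). A probe set annotated to both Psme2 and its near copy Psme2b, which the rule leaves out, was also lower, with a mean of 8.16 ± 0.05 in caffeine+ cells and 8.98 ± 0.16 in caffeine- cells (SD, n = 3 each). Psme3, the gene of the nuclear PA28 gamma, was 1.38-fold lower (-0.47 ± 0.07). Psme4, which encodes the nuclear activator PA200, was 10.79, 10.87 and 10.81 in the caffeine+ arrays, against 10.31, 10.32 and 10.08 in the caffeine- arrays. It was 1.5-fold higher (0.59 ± 0.07, limma adjusted p = 3e-06), without overlap of the groups. Psmf1, the gene of the inhibitor PI31, differed by 0.05 ± 0.09 (95% interval -0.14 to 0.24).

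The genomic span of the gene in the reference annotation, which the rule did not use, was examined after the differences were known. The 14 genes that rose had a median span of 19.1 kb and the 18 that fell one of 7.29 kb, against 36.5 kb for all genes that rose and 13.8 kb for all that fell. Of the 24 members shorter than their median span of 11.9 kb, 2 rose and 16 fell, with a median difference of -0.40. Of the 24 at or above it, 12 rose and 2 fell, with a median of 0.15. Over all genes cut at the same span, 6.70% of 7819 shorter genes were higher and 24.95% lower, and 22.4% of 12032 longer genes were higher and 19.6% lower. The exceptions among members were the short genes that rose, Psmd6 and Psmg3, and the long genes that fell, Psmc1 and Psma8. Across the 48 genes span on a log10 scale and difference correlated at r = 0.49 (Pearson) and 0.56 (Spearman). For all 19851 genes with a span the values were 0.16 and 0.19. Like the shares at the same span, these are not matched for level, and brighter genes alone were not examined. These are descriptions across genes measured on the same 6 arrays. In the core the Spearman value was 0.45 (n = 19) and in the cap 0.68 (n = 20), and core genes had a shorter median span (10.1 kb) than cap genes (13.3 kb). Level and difference correlated at 0.02 across the 48, 0.41 in the core and -0.03 in the cap (Pearson).

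**Figure D3:**
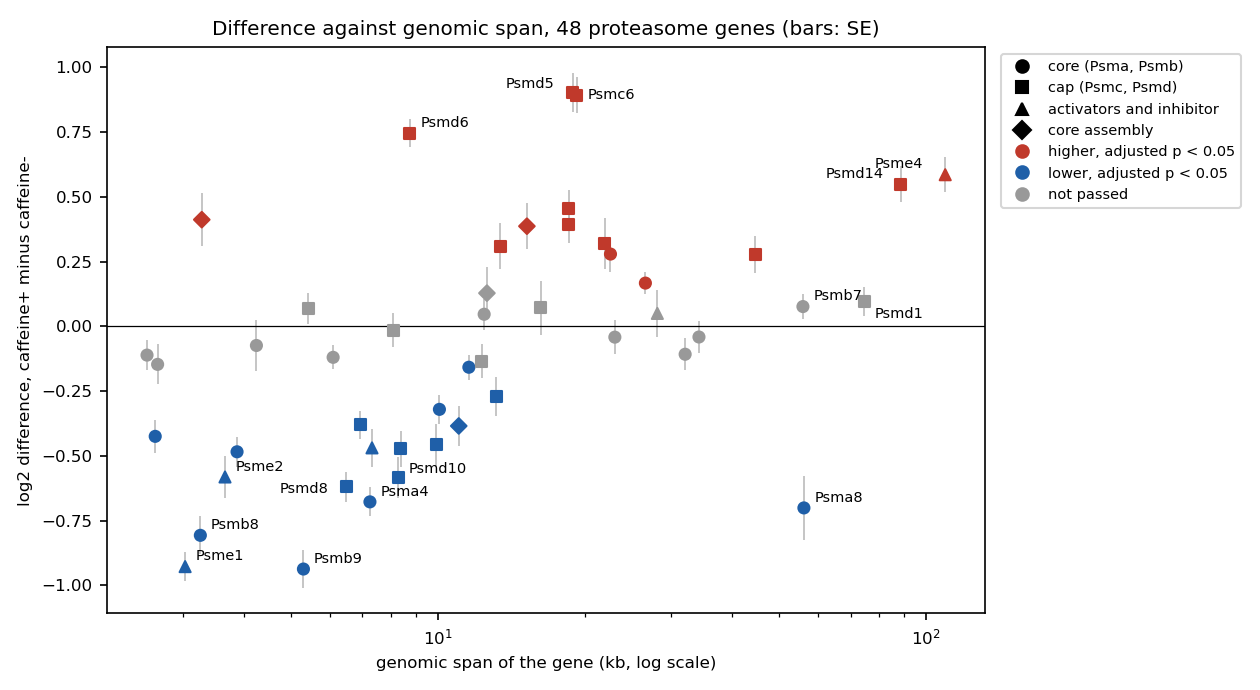
Log2 difference, caffeine+ minus caffeine-, against the genomic span of each of the 48 proteasome genes (kb, log scale). Marker shape gives the part of the proteasome, colour the limma call, and bars the standard error (n = 3 arrays per group). Below 11.9 kb 16 of 24 genes fell, and at or above it 12 of 24 rose.

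Genes that work beside the proteasome were taken from 4 lists. Of 14 measured genes of proteasome partners, shuttles and assembly helpers, 7 were higher and 1 lower (median 0.30), beside 16.2% higher and 21.7% lower among all genes. Ecpas, an adaptor that binds the assembled proteasome, was 10.43, 10.43 and 10.41 in the caffeine+ arrays, against 9.30, 9.32 and 9.12 in the caffeine- arrays, and so 2.26-fold higher (1.18 ± 0.07, limma adjusted p = 1.7e-09). Zfand5, whose protein stimulates the proteasome, was 2.05-fold higher (1.03 ± 0.06), and Txnl1, a redox protein bound to the cap, 1.57-fold higher (0.65 ± 0.08). Pomp, the factor that matures the core and in particular the immunoproteasome, was the fall, at 11.12, 11.16 and 11.15 in the caffeine+ arrays, against 12.00, 11.88 and 11.88 in the caffeine- arrays (-0.78 ± 0.05, limma adjusted p = 4.8e-09). Of 7 measured genes of ubiquitin supply and p97, the segregase that extracts proteins for degradation, 3 rose and 1 fell (42.9% and 14.3%, beside the same 16.2% and 21.7%). The cofactor genes of p97 Faf1 (1.28 ± 0.11), Nploc4 (0.39 ± 0.09) and Ufd1 (0.36 ± 0.07) were higher and Faf2 (-0.58 ± 0.09) lower. The ubiquitin genes themselves were not analysed here.

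In the list around NRF1 2 of 8 genes rose and 1 fell, and the 37.5% that passed lie near the 37.9% of all genes. Nfe2l1, the NRF1 gene, had a mean level of 8.85 ± 0.06 in caffeine+ cells and 9.03 ± 0.04 in caffeine- cells (SD, n = 3 each) and did not pass (-0.18 ± 0.07, limma adjusted p = 0.056). It did pass without caffeine- array 3 (0.027), after quantile normalization (0.0033), with array weights (0.023) and among genes above the median level (0.037) or the lower quartile (0.049). Ngly1, whose enzyme processes NRF1, was 1.51-fold lower (-0.60 ± 0.12). Bach1, which represses antioxidant response elements, was 1.34-fold higher (0.42 ± 0.08), and the partner gene Mafk was 1.27-fold higher (0.35 ± 0.10, limma adjusted p = 0.0087, lost without caffeine+ array 3 at 0.054).

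All 9 measured genes of MHC class I antigen processing were lower, beside 21.7% of all genes, with a median of -0.38. Erap1, which trims peptides in the endoplasmic reticulum, was 7.75, 7.78 and 7.65 in the caffeine+ arrays, against 8.69, 8.52 and 8.41 in the caffeine- arrays. The groups did not overlap, and Erap1 was 1.75-fold lower (-0.81 ± 0.09, limma adjusted p = 1.8e-06). Calr and Pdia3, chaperone genes of the peptide loading complex, were 1.51-fold lower and 1.3-fold lower. Tap1, a subunit gene of the peptide transporter and the neighbour of Psmb8 and Psmb9, was 8.08, 8.16 and 8.01 in the caffeine+ arrays, against 8.75, 8.54 and 8.69 in the caffeine- arrays. Tap1 was 1.49-fold lower (-0.57 ± 0.08), less than its neighbours, although that difference was not tested. The other genes of the list, B2m among them, differed by between -0.41 and -0.27. The class I heavy chain genes H2-K1 and H2-D1 share their probe sets and were left out by the rule of 1 symbol. Markers of monocytes, macrophages, dendritic cells and neutrophils were lower in the same caffeine+ arrays by the values given with the immunoproteasome, and their part was not tested.

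**Figure D4:**
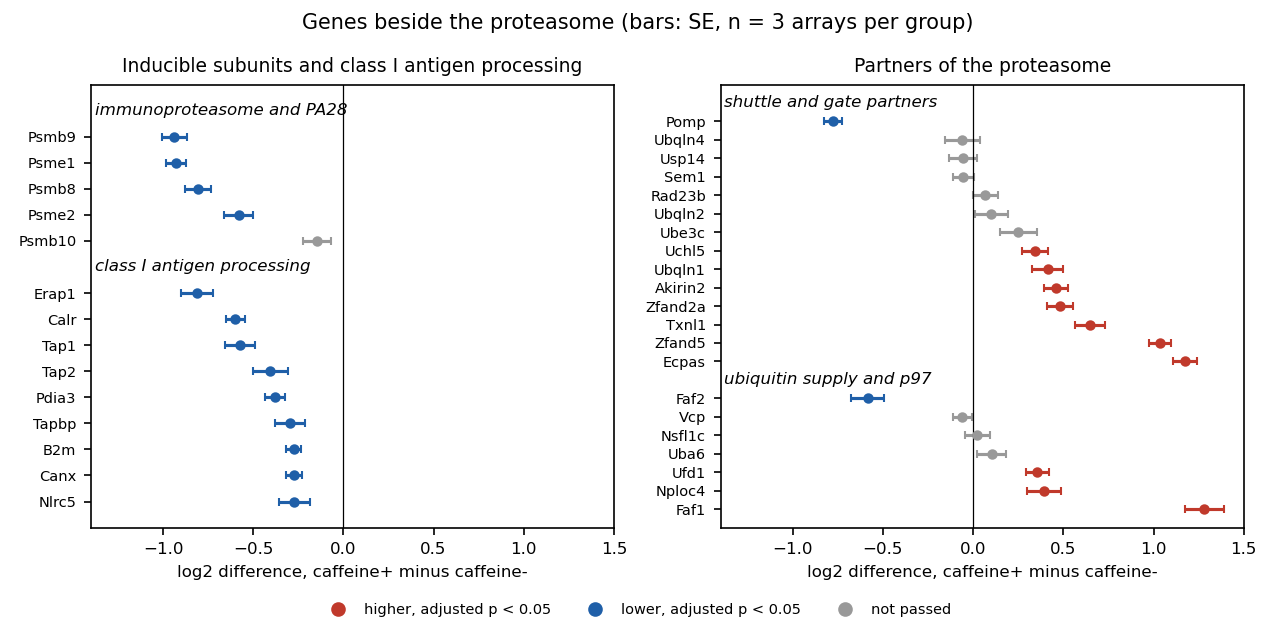
Log2 difference, caffeine+ minus caffeine-, of the immunoproteasome and PA28 genes with MHC class I antigen processing genes (left), and of partners of the proteasome and of p97 (right). Points are differences, bars standard errors (n = 3 arrays per group), and colour gives the limma call. All 9 class I genes lie left of 0, from -0.81 to -0.27, and Pomp is the fall among 14 partners.

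Some values are uncertain in their gene. In the reference annotation the spans of 12 of the 48 genes overlap another gene, among them Psme1 (Emc9), Psmd10 (Atg4a), Psma4 (AY074887), Psmb5 (Mir686) and Psme4 (Erlec1), and the array's genome positions were not used here. It also lists 6 pseudogenes named after Psma5, Psmb5, Psmb6 and Psmb7, with which their probe sets could share signal. Among the members, probe set numbers mostly run in the order of the chromosomes. The brightest probe sets of Psma3, Psma5, Psmb3 and Psmd2 lie outside the run of their gene's chromosome. So do the second probe set of Psma3 and the dimmer one of Psmc1. Whether these probe sets measure copies of the genes elsewhere was not tested, so the calls of Psma3, Psma5, Psmb3 and Psmd2 are less certain. The dimmest probe set of Psma3 and the dimmer ones of Psmb3 and Psmd2 lie within the run. In the limma fit of every probe set those of Psma3 (0.07 ± 0.08) and Psmb3 (-0.22 ± 0.08) did not pass. That of Psmd2 did (-0.19 ± 0.06). Each of them differs from the call counted for its gene. Of the 5 members with several probe sets, Psma3, Psmb3 and Psmd2 had probe sets that passed and others that did not, and Psma5 and Psmc1 had none that disagreed. The 2 genes matched by name alone also passed: Psmc3ip, a meiotic recombination gene, was 1.47-fold lower (-0.55 ± 0.08, limma adjusted p = 4.6e-05) and Psme3ip1 1.26-fold higher (0.34 ± 0.09).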

How the data were processed

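Biotinylated cDNA from 300 ng of total RNA was hybridised for each of 6 granulocyte samples, per the labels' protocols. The authors deposited 1 value for each of 34760 probe sets and array, read here as normalized log2 levels because they run from 1.90 to 13.98 with nearly equal array medians. No header states this, and background correction and normalization were not given in the sources used here. A change in total mRNA per cell cannot be seen on this scale.

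Symbols came from the platform annotation (21640 probe sets with 1 symbol, 1321 with several, 11799 unlisted), updated through gene identifiers of GRCm38.p6 (21553 matched). The brightest probe set by mean over 6 arrays stood for each of 19937 genes. Groups were compared with limma 3.58.1 (lmFit, eBayes with an intensity trend, two-sided, Benjamini-Hochberg, no filter on dim genes), tested on simulated data. Alternatives were the replicate block, 2 scalings, 2 filters on dim genes, 2 uses of probe sets, 2 variance models, array weights and leaving out each of the 6 arrays.

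The members, lists and tests were chosen with earlier results of these data known. Genes were named by rule (the 2 members of each role and up to 4 genes of each partner list with the smallest p, all immunoproteasome genes, members whose probe sets disagreed, Psmc3ip). Other members are described to account for all 48, and values per array of Psmb1 and Psmd14 were chosen after they were seen.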

Additional observations from a re-analysis of the deposited data

How the results depend on the processing

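Of the 32 proteasome genes that passed, 28 kept their call under every alternative in which they were tested, and of the 16 that did not pass, 12 stayed so. These were 16 alternatives, except 14 for Psma8 and 15 for Psmb11, which the filters on dim genes removed. The 8 exceptions (Psma1, Psma3, Psma7, Psmb2, Psmb7, Psmc1, Psmd2 and Psmd9) are given above with their values. Between 13 and 15 proteasome genes rose and between 16 and 20 fell. The number of core genes that rose was 1, not 2, when a gene's probe sets were averaged and with eBayes without an intensity trend. With arrays centred on their medians the median difference was 0.0016 for the 48 genes, -0.060 for the core, 0.14 for the cap and 0.043 for all partner genes, and the calls over all genes were 3674 higher and 3749 lower, against 3229 and 4325. The cap median was 0.050 after quantile normalization and 0.13 without caffeine+ array 3 or caffeine- array 1, and that of the 48 was -0.093 without caffeine- array 3. Psmd5 and Psmc6 changed places as the highest difference after quantile normalization and without caffeine+ array 1, caffeine+ array 2 or caffeine- array 1. Leaving out 1 array at a time put the partner median between -0.048 (without caffeine- array 3) and 0.032 (without caffeine- array 1), beside -0.016 with all arrays. Replicate numbers were not taken to pair the arrays, because the labels do not say that they do. Deviations of same-numbered arrays correlated at -0.03, 0.19 and 0.29, and those of differently numbered arrays at between -0.28 and 0.13, which does not settle whether arrays were paired. With the replicate block 14 proteasome genes again rose and 18 fell, while the calls over all genes were 3388 higher and 4660 lower, against the same 3229 and 4325. Centring the arrays shifted the median difference of all genes to 0.02, beside -0.04 as deposited.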
